A study of Drosophila melanogaster and Drosophila miranda with 8 samples.

Results

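The center-matched CLAMP sites of D. melanogaster were the places where the peaks of both ChIP replicates had nearly the same midpoint. A site was a pair of 1 peak from replicate 1 and 1 peak from replicate 2 on the same assembled chromosome, selected on their midpoints alone, which had to lie at most 200 bp apart. The rule gave 459 sites on X, 2L, 2R, 3L, 3R and 4. They used 459 different peaks of each list, which was 5.11% of the 8987 replicate 1 peaks and 5.45% of the 8424 replicate 2 peaks on these chromosomes. The 8528 and 7965 peaks that took no part in a site are called the remaining peaks. Across the series, the 4 ChIP peak lists held 33972 peaks.

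The series held 8 libraries, an anti-CLAMP ChIP and its input for each of 2 replicates in each of 2 species, D. melanogaster and D. miranda. All animals were wild type female larvae of the third instar, D. melanogaster having been raised at 21 °C, D. miranda at 18 °C, and each chromatin preparation came from many whole larvae ground together, so the peaks average over all larval tissues. The labels do not say whether the replicates came from separate cultures, and sequencing depth is not part of the peak lists.

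CLAMP is a zinc finger protein that binds GA-rich sequences on all chromosomes. In males it links the MSL dosage compensation complex to the X chromosome, where that complex raises the transcription of active genes. Females do not assemble the MSL complex on their X chromosomes, so in these animals CLAMP occupancy was measured without it.

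Each list gives for every peak a start, an end and a value, which was read here as the log2 enrichment of ChIP over input (log2 value). Replicate 1 values lay higher as a whole than replicate 2 values, so that levels are compared within a list, and between the lists only by rank. Midpoints chose the sites, and width and value come from the same peak calls. The widths, values and positions below are therefore descriptions without a test, and every interval is a 95% interval that covers counting error only. All positions are in dm3, counted from 1, and are those of the replicate 1 peak unless the other is named. The sites were not assigned to genes here.

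Sites were more numerous than the density of the peaks alone would give. If both lists were spread evenly along each chromosome, 252.5 pairs would have midpoints this close, so the 459 sites were 1.82 times that number (1.66 to 1.99). Pairs with midpoints 5 to 20 kb apart gave a similar yardstick of 260.2 pairs for the same span, against which the sites were 1.76-fold (1.61 to 1.93). The surplus over even placement was thus 206.5 sites, and nothing in the lists tells which of the 459 belong to it.

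The surplus was concentrated at the smallest distances. There were 163 pairs with midpoints up to 50 bp apart, 2.59 times even placement (2.21 to 3.02), and 130 pairs at 50 to 100 bp, 2.07 times even placement (1.73 to 2.45). From 100 to 150 bp the count was 79 pairs, 1.26 times even placement (0.993 to 1.56), and from 150 to 200 bp it was 87 pairs, or 1.38 times (1.11 to 1.70). Beyond the limit an excess like that at 100 to 200 bp continued, with 181 pairs at 200 to 300 bp (1.44-fold) and 186 at 300 to 400 bp (1.48-fold). At 600 to 800 bp there were 312 pairs (1.24-fold, 1.11 to 1.38). The excess was no longer seen at 800 to 1000 bp, where 259 pairs were 1.03 times even placement. Nor was it seen at 1 to 1.5 kb, where 594 pairs were 0.943 times.

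**Figure D1:**
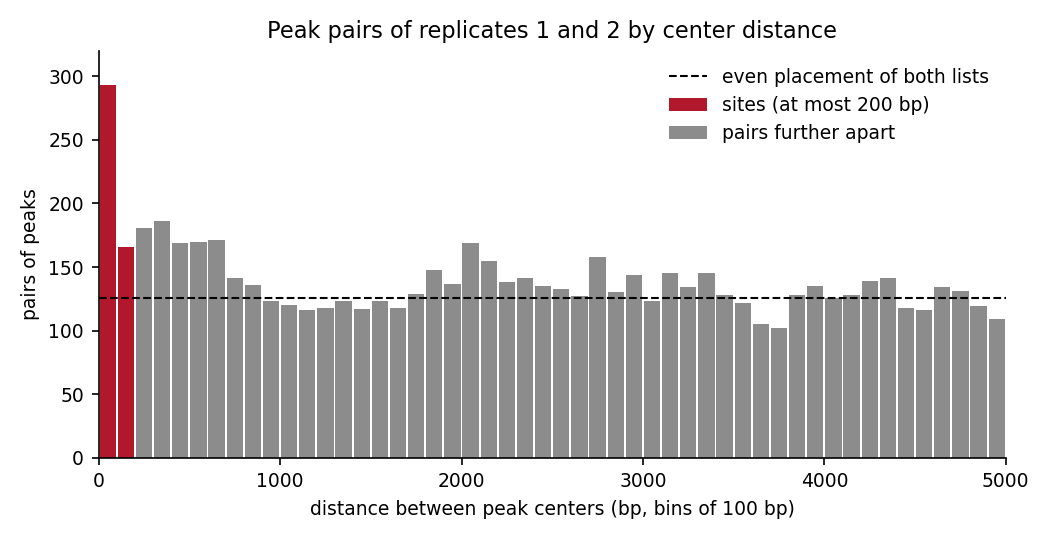
Number of pairs of 1 replicate 1 peak and 1 replicate 2 peak (y axis) by the distance between their midpoints (x axis, bp, 100 bp bins), with the sites in red, pairs further apart in gray and the number under even placement as a line. The first bin holds 293 pairs and the second 166, against 125.9 pairs per bin under even placement.

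At a typical site the peaks overlapped over most of their length. The midpoints lay a median of 75.5 bp apart (quartiles 36.75 and 131 bp), with the replicate 2 midpoint to the right at 241 sites and to the left at 218. The overlap was a median of 84.1% of the wider peak (quartiles 69.7% and 93.0%), and reached 50% at 437 of 459 sites (95.2%). Among the 1933 overlapping pairs whose midpoints were more than 200 bp apart, 707 (36.6%) reached 50%, a contrast that the rule partly builds in. At 105 sites (22.9%) both edges agreed within 100 bp, at 160 sites 1 edge did, and at 194 sites (42.3%) neither did. The starts differed by a median of 139 bp, the ends by 150 bp and the widths by 221 bp. That edges differed by more than midpoints is built in, since a midpoint is the mean of its edges and the rule limits midpoints only. One peak lay wholly inside the other at 310 sites (67.5%).

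The rule says nothing of width, and site peaks were wider than the remaining peaks in both lists. In replicate 1 the median width was 1648 bp for the site peaks (1528 to 1789), against 1284 bp for the remaining peaks, a difference of 364 bp. In replicate 2 it was 1870 bp for the site peaks (1813 to 1935), against 1501 bp for the remaining peaks, a difference of 369 bp. Peaks that overlapped the other list with midpoints further apart lay in between, at 1431.5 bp in replicate 1 and 1672 bp in replicate 2, and peaks without overlap were narrowest, at 1249 and 1458 bp. The order of these last classes is partly built in, because a wider peak meets a peak of the other list more often under any placement.

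The difference in width came from both ends of the distribution. No peak in either list was narrower than 1000 bp, and that exact width was found for 71 of the replicate 1 site peaks (15.5%, 12.3 to 19.1), against 2222 of the remaining peaks (26.1%, 25.1 to 27.0). Widths over 1900 bp were found for 187 site peaks in replicate 1 (40.7%, 36.2 to 45.4), against 1725 remaining peaks (20.2%, 19.4 to 21.1). In replicate 2 they were found for 221 site peaks (48.1%, 43.5 to 52.8), against 2265 remaining peaks (28.4%).

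Most of this excess sat in a narrow band of widths just above 2000 bp. Widths of over 2000 and up to 2300 bp are called the 2.0 to 2.3 kb band. In replicate 1, 96 of the 455 peaks in this band belonged to a site (21.1%, 17.4 to 25.1), and in replicate 2, 87 of 452 did (19.2%, 15.7 to 23.2). These peaks made up 20.9% of the site peaks and 4.21% of the remaining peaks in replicate 1, and 18.9% of the site peaks and 4.58% of the remaining peaks in replicate 2. On either side of the band the share that belonged to a site was nearer to that of the whole list, at 6.25% for over 1900 and up to 2000 bp and 6.24% above 2300 bp in replicate 1, and at 6.56% and 6.67% for the same widths in replicate 2. The band was chosen after the widths were seen. Without its peaks 326 sites remained, 1.44 times even placement (1.28 to 1.60). The median site peak was then 57 bp wider than the remaining peaks in replicate 1 (-12 to 179) and 78 bp wider in replicate 2 (-34 to 226). Both intervals include no difference and cover the median of the site peaks only. These falls were partly built in, because the band held a larger share of the site peaks than of the remaining peaks.

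**Figure D2:**
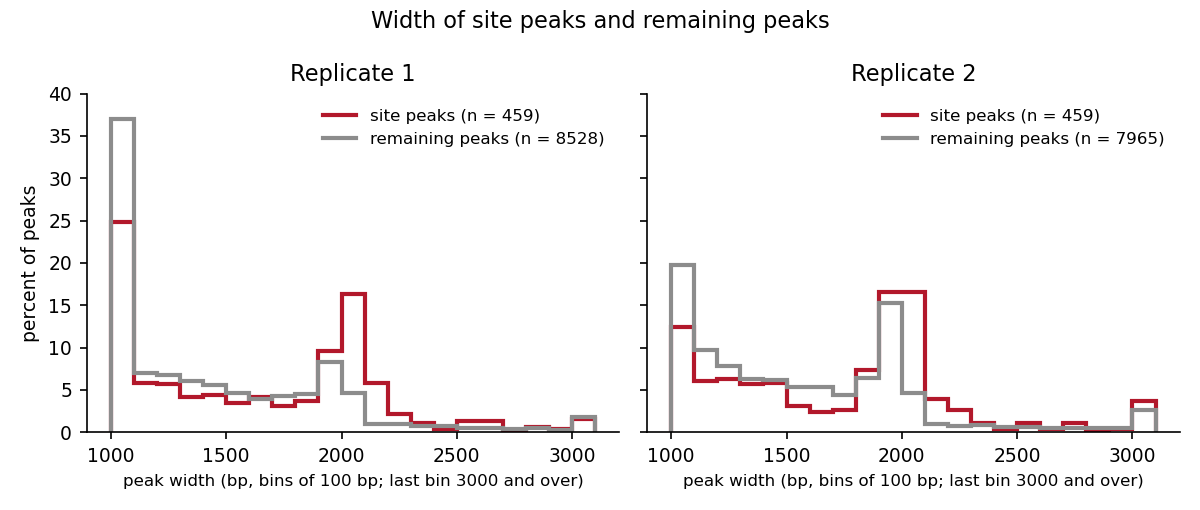
Peak width (x axis, bp) of the site peaks and of the remaining peaks in each replicate, as the percentage of each class of peaks (y axis). The first bin, 100 bp from 1000 bp up, holds 24.8% of the site peaks and 37.0% of the remaining peaks in replicate 1. The site peaks have more widths above 2000 bp.

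At some sites both replicates gave a width in the 2.0 to 2.3 kb band. At 50 of 459 sites (10.9%) both peaks were in this band, and their midpoints were a median of 43.75 bp apart. Among the 1933 overlapping pairs further apart, 9 pairs (0.466%) had both widths in the band. This contrast makes no allowance for how common the band was among the single peaks of each class. With the wider class of over 1900 bp, both peaks qualified at 134 sites (29.2%), against 19.6% if the shares of the 2 lists are multiplied and 12.7% of the overlapping pairs. This class thinned out with distance, making up 79 of the 163 sites with midpoints up to 50 bp apart (48.5%), 31 of those at 50 to 100 bp, 9 of those at 100 to 150 bp (11.4%) and 15 of those at 150 to 200 bp (17.2%). Among overlapping pairs at 200 to 400 bp it was 49 of 367 (13.4%).

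Peak values of the sites had nearly the same center as those of the remaining peaks and a wider spread in replicate 1. The replicate 1 log2 value was a median of 3.20 at the sites (quartiles 2.84 and 3.68, range 0.30 to 6.49), against 3.12 for the remaining peaks. In replicate 2 it was a median of 2.28 at the sites (quartiles 1.87 and 2.78, range 0.75 to 5.58), against 2.21 for the remaining peaks. The medians thus differed by 0.08 and 0.07 on the log2 scale, and without the peaks of the 2.0 to 2.3 kb band these differences became 0 and -0.048. The 10th and 90th percentiles of the log2 value in replicate 1 were 2.40 and 4.32 for the site peaks, against 2.74 and 3.84 for the remaining peaks.

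In replicate 1 the sites were therefore drawn from both tails of the values. Of the top 881 peaks by value, about 10% of the list, 89 belonged to a site (10.1%, 8.19 to 12.3), and of the lowest 843 peaks 70 did (8.30%, 6.53 to 10.4). With the list cut into 10 classes by value, the classes in between gave 3.06% to 5.01%, apart from the eighth, which ties had reduced to 46 peaks, 9 of them in a site (19.6%, 9.36 to 33.9). Among the strongest replicate 1 peaks the share climbed further, to 26 of the top 104 (25%, 17.0 to 34.5) and 15 of the top 47 (31.9%, 19.1 to 47.1). Of the 82 site peaks with a replicate 1 log2 value below 2.84, 46 were over 1900 bp wide, and these were 20.5% of the 224 peaks of that kind in the list (15.4 to 26.4). The low values were of mixed kind. In replicate 1 the ratio behind the log2 value was a whole multiple of a common step for 91.1% of all peaks and 81.9% of site peaks. Of the 82 low site peaks 30 had such a ratio, against 505 of the 1102 peaks below 2.84 in the list. What the other ratios stand for was not tested.

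In replicate 2 the top class by value also had the highest share, with no further climb among the strongest peaks. Of its top 799 peaks 59 belonged to a site (7.38%, 5.67 to 9.42), while the other 9 classes gave 4.16% to 6.29%. The share was 36 of the top 503 peaks (7.16%), 18 of the top 193 (9.33%, 5.62 to 14.3), 6 of the top 102 (5.88%, 2.19 to 12.4) and 2 of the top 48 (4.17%, 0.509 to 14.3), and the intervals for the last 2 include the 5.45% of the whole list. These strongest peaks differed in shape between the lists. The top 102 of replicate 2 had a median width of 1040 bp, and 77 of them were at most 1200 bp wide, whereas the top 104 of replicate 1 had a median width of 2929 bp and none was that narrow. Within replicate 2, the 6 top peaks that belonged to a site had a median width of 2240 bp, against 1037.5 bp for those that did not.

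**Figure D3:**
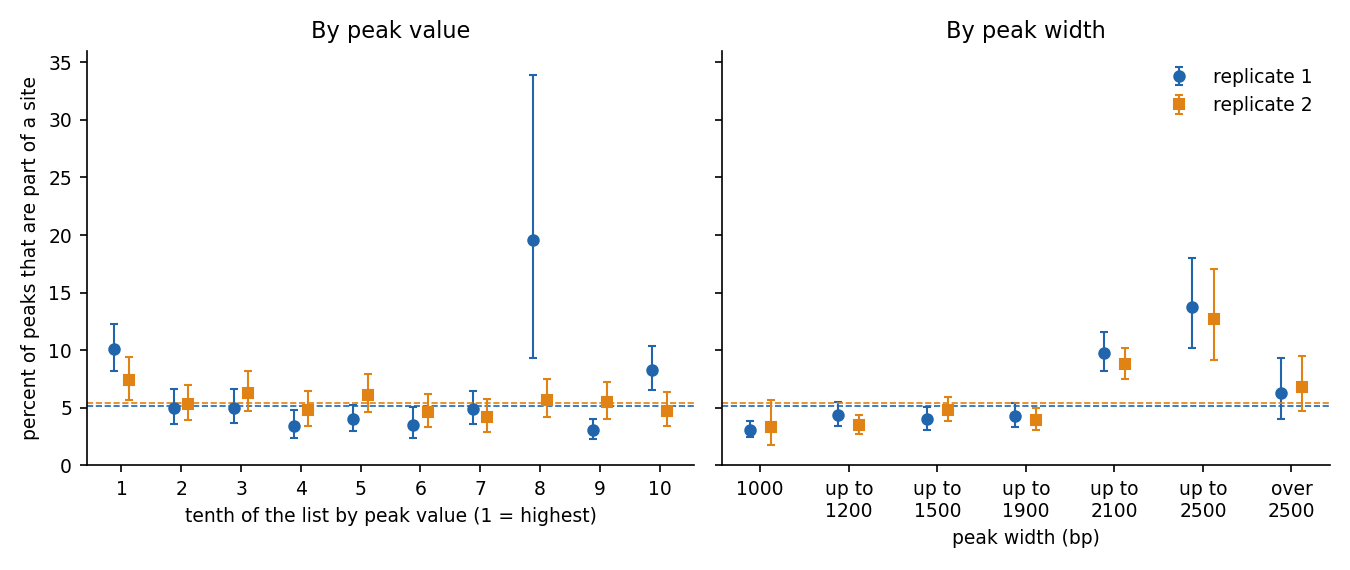
Percentage of peaks that belonged to a site (y axis) by class of peak value (10 classes, 1 the highest) and by width class (x axes) in each replicate, with exact binomial 95% intervals as bars (counting error only) and the share of the whole list as dashed lines. The top class by value gave 10.1% in replicate 1 and 7.38% in replicate 2, the widths over 2100 and up to 2500 bp 13.8% and 12.7%, and the eighth class by value of replicate 1 holds only 46 peaks.

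Within a class of width, values differed most between site peaks and remaining peaks among the wide peaks of replicate 2. For replicate 2 peaks over 1900 bp the median log2 value was 2.43 at the sites (2.31 to 2.52, n = 221), against 2.12 for the remaining peaks (2.10 to 2.15, n = 2265). For replicate 1 peaks over 1900 bp it was 3.71 at the sites (n = 187), against 3.74 for the remaining peaks (n = 1725). The value also went with width differently in each list. Spearman's rho between width and value was 0.434 for site peaks and 0.602 for remaining peaks in replicate 1, and 0.169 for site peaks and -0.252 for remaining peaks in replicate 2.

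The replicates agreed on the width of a site more than on its value. Across the 459 sites, which share their genomic position, Spearman's rho between the replicates was 0.477 for width (Pearson 0.358) and 0.115 for the log2 value (Pearson 0.157). Across the 1933 overlapping pairs with midpoints further apart, rho was 0.051 for width and 0.040 for value. The sites were then split by width, which narrows the range of width in each part and can lower rho for width without any change in agreement. At the 134 sites with both peaks over 1900 bp rho was 0.313 for width and 0.168 for value, and at the other 325 sites it was 0.090 for width and -0.013 for value. Without the peaks of the 2.0 to 2.3 kb band rho for value was 0.037 (-0.072 to 0.145). By distance, agreement of width was highest at the sites with midpoints up to 50 bp apart (rho 0.577 for width, 0.188 for value) and lower at 150 to 200 bp (0.311 for width, -0.168 for value). The correlations of value were weak throughout. Over all sites the interval of rho was 0.024 to 0.205, and with midpoints within 100 bp rho was 0.204 (0.091 to 0.311). On X rho for value was 0.251 (n = 94), and on the autosomes 0.068 (n = 365). A shared midpoint thus came with a rank that was at most weakly shared. Ranks in replicate 1 are coarse, since its list has 256 distinct values, against 1595 in replicate 2. The part of these ties in the weak correlations was not tested.

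**Figure D4:**
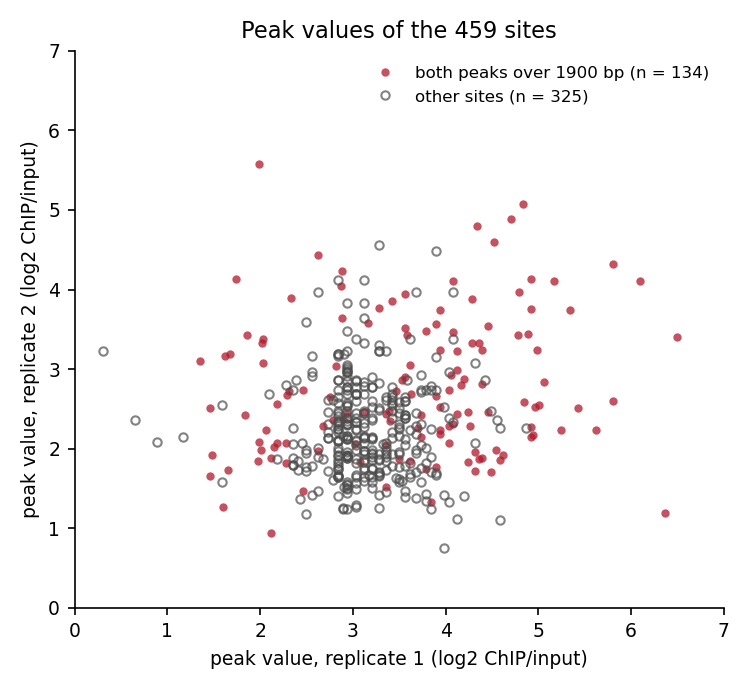
Log2 value in replicate 1 (x axis) against log2 value in replicate 2 (y axis) for the 459 sites, 1 point per site, filled where both peaks are over 1900 bp wide. The points form a broad cloud with Spearman's rho 0.115, and the sites high in both lists are few.

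A small group of sites was strong in both lists. At 28 sites (6.10%) both peaks stood in the top 10% of their list, against 2.49% from multiplying the shares and 27 of the 1933 overlapping pairs (1.40%). Their median widths were 2142.5 bp in replicate 1 and 2117 bp in replicate 2, and their median log2 values 4.49 and 3.75. They lay on X (8 sites), 3L (6), 2L (5), 3R (5), 2R (3) and 4 (1). In the lower 50% of both lists there were 99 sites (21.6%), close to the 22.7% of the overlapping pairs.

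Ordered by the mean of their within-list ranks, the leading site spanned 12601504 to 12603739 of 3L and had log2 values of 4.84 in replicate 1 and 5.07 in replicate 2 and midpoints 9.5 bp apart. The next was on 2R from 3187362 to 3189456, with 5.80 in replicate 1 and 4.32 in replicate 2. The third was on X from 3570729 to 3572839, with 4.71 and 4.89 in replicates 1 and 2. In the first and second of these the outlines nearly coincided, since the replicate 2 peak ran from 12601508 to 12603716 in the first and from 3187367 to 3189491 in the second. In the third the replicate 2 peak, from 3570226 to 3573383, reached beyond the replicate 1 peak on both sides.

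The fourth site, on 2L from 7529532 to 7532043, had log2 values of 6.10 in replicate 1 and 4.11 in replicate 2. The fifth, also on 3L, from 20509626 to 20511736, had 4.92 and 4.13. The sixth, on 2L from 16485379 to 16487816, had 5.17 and 4.11. All 3 of these were 2092 to 2512 bp wide in both lists. The seventh, on X from 7497907 to 7499928, had 4.53 in replicate 1 and 4.59 in replicate 2. The eighth, on chromosome 4 from 1283418 to 1285492, had 4.79 and 3.97, with the whole replicate 2 peak shifted by 117 bp at its start and 119 bp at its end. The ninth, on 3R from 12067322 to 12069532, had 4.34 and 4.79. The last of these 10, on X from 4318039 to 4322095, had 5.34 and 3.74 and was the widest of the 10, at 4057 bp in replicate 1 and 3847 bp in replicate 2. The strongest replicate 1 peak of any site, on 2R from 7414378 to 7418145 with a log2 value of 6.49, stood at 3.41 in replicate 2 and came thirteenth in this order.

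The 5 sites at the other end of the order were weak in both lists yet often had closely matched outlines. The lowest, on 2L from 18880631 to 18882575, had log2 values of 2.12 in replicate 1 and 0.95 in replicate 2, with midpoints 5.5 bp apart and an overlap of 98.1%. The one above it, on 3R from 2503445 to 2505441, had 1.60 and 1.26, with an overlap of 97.8%. The other 3 were on 3L from 130547 to 132010 (2.49 and 1.18), on 3R from 3110422 to 3112153 (2.43 and 1.37) and on X from 8793337 to 8795257 (1.58 in both).

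At other sites the replicates matched in place and differed in value. The 5 sites named here had the largest differences of the log2 value itself, and replicate 1 values were higher by a median of 0.96 over all sites, so the ranks are given too. On 2R, the peak from 6532124 to 6534237 had a log2 value of 6.37 in replicate 1, rank 2 of its list, and 1.19 in replicate 2, rank 8346, although the midpoints were 3.5 bp apart and the overlap was 94.2%. On X, the site from 15199248 to 15201382 went the other way, with 1.99 in replicate 1 (rank 8865) and 5.58 in replicate 2 (rank 21). On X from 21101912 to 21104073 the values were 4.59 (rank 118) and 1.11 (rank 8380). On 3L the site from 3373231 to 3375230 had 3.99 in replicate 1 and 0.75 in replicate 2, the lowest value of that list. The X site from 8303450 to 8305586, with 5.62 in replicate 1 (rank 12) and 2.23 in replicate 2 (rank 4109), stood near the middle of the replicate 2 list, so that by rank it differed less than the other 4. In 4 of these 5 sites the replicate 1 peak was 2114 to 2162 bp wide.

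The widest sites were of mixed kind. On 3R from 657611 to 664618 a replicate 1 peak of 7008 bp held a replicate 2 peak of 2090 bp, and on X a replicate 2 peak of 7047 bp held the replicate 1 peak from 16042337 to 16043820. On chromosome 4 a replicate 2 peak of 5563 bp held the 2000 bp peak of replicate 1 from 1177912 to 1179911. In these 3 cases the shared midpoint did not come with shared edges. The X site from 4577544 to 4581457 was wide in both lists, at 3914 bp in replicate 1 and 4021 bp in replicate 2, with log2 values of 1.36 and 3.10.

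Just inside the limit of 200 bp, the site on 2R from 6189531 to 6191148 (200 bp apart) had log2 values of 3.89 in replicate 1 and 3.15 in replicate 2, and that on 3R from 19019065 to 19020731 (199.5 bp) had 3.49 and 2.51. The X site from 15199248 described above was also at 200 bp. Just outside, at 200.5 bp, were pairs on 3R from 24888044 to 24890032 (3.74 and 1.37), on 2R from 17255352 to 17256616 (3.68 and 1.34) and on 3L from 12077952 to 12080918 (4.16 and 2.55). The 87 sites at 150 to 200 bp had median widths of 1444 and 1835 bp in replicates 1 and 2, and the 92 pairs at 200 to 250 bp had 1489 and 1647 bp, so the limit did not mark a break.

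Sites were found on every assembled chromosome. There were 94 on X, 4.19 per Mb (3.39 to 5.13), against 365 on the autosomes, a ratio of X to autosome density of 1.12 (0.886 to 1.41). Over even placement X had 2.14 times as many (1.73 to 2.61), against 1.97 on 3L (1.60 to 2.40), 1.78 on 2L (1.42 to 2.22), 1.68 on 3R (1.39 to 2.02) and 1.55 on 2R (1.20 to 1.96). Relative to even placement the ratio of X to autosomes was 1.22 (0.962 to 1.53). The ratio of all peaks was 0.922 in replicate 1 (0.873 to 0.974) and 0.999 in replicate 2 (0.945 to 1.06). The interval for the sites includes equal density, so that no difference between X and the autosomes was detectable at this number of sites.

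For the subsets of wide and of closest sites the intervals also included equal density. Of the sites with both peaks over 1900 bp, 32 lay on X and 102 on the autosomes, a density ratio of 1.37 (0.890 to 2.06). For sites with midpoints up to 50 bp apart the numbers were 31 on X and 132 on the autosomes, a ratio of 1.03 (0.670 to 1.53). Median widths on X were 1830.5 bp in replicate 1 and 1889 bp in replicate 2, against 1585 and 1855 bp on the autosomes. Median log2 values on X were 3.28 and 2.47 in replicates 1 and 2, against 3.12 and 2.24 on the autosomes. Without the peaks of the 2.0 to 2.3 kb band the density ratio was 0.964 (0.715 to 1.28).

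**Figure D5:**
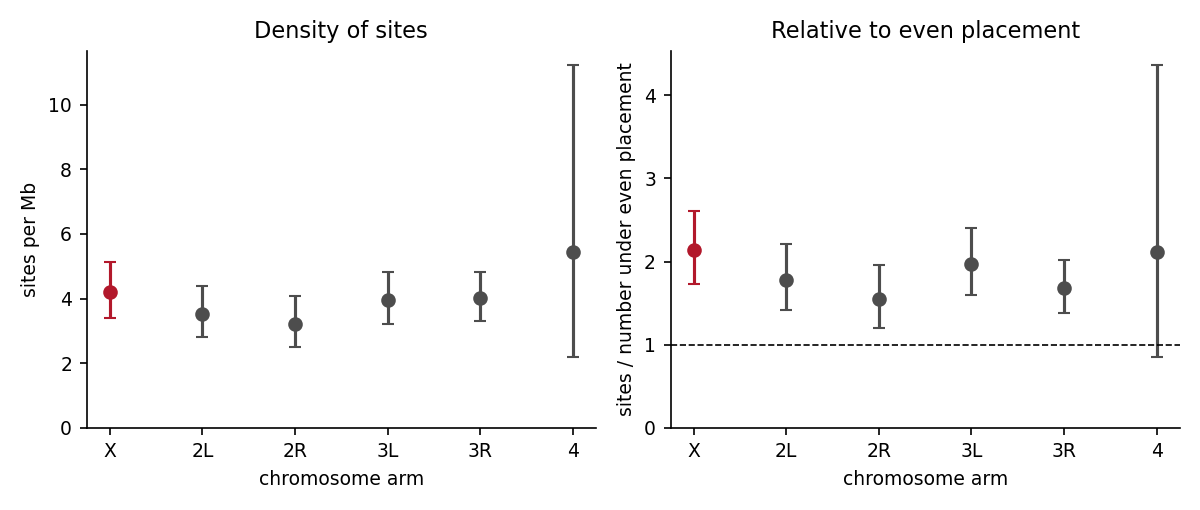
Sites per chromosome, as the density per Mb and as the ratio to even placement (y axes), with exact Poisson 95% intervals that cover counting error only. X has 4.19 sites per Mb, the autosomal arms 3.22 to 4.02, and chromosome 4, with 7 sites, has a wide interval.

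Chromosome 4, the small and mostly heterochromatic chromosome, carried 7 sites, 5.45 per Mb (2.19 to 11.2) and 2.12 times even placement (0.851 to 4.36). Beside the 2 named above there were a pair of neighbors, from 230510 to 232413 with log2 values of 3.62 in replicate 1 and 3.38 in replicate 2 and from 232859 to 234506 with 3.28 and 3.23. The other 3 ran from 401495 to 402960 (3.89 and 2.73), from 590961 to 592405 (3.03 and 2.33) and from 995955 to 997011 (2.62 and 3.97).

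Along the chromosomes the median spacing of the sites was close to that of even placement. Their counts in windows of 1 Mb, given below, had a variance above the mean. The median distance to the nearest site was 91.5 kb (69.5 to 103), 1.01 times that of even placement (0.770 to 1.17), and 44 sites (9.59%) had a neighbor within 10 kb, against 34.05 under even placement. All peaks of replicate 1 were spaced 1.15 times wider than even placement (1.12 to 1.17) and those of replicate 2 1.16 times (1.13 to 1.18). Ratios above 1 are partly built in here, because even placement lets midpoints lie at any distance. No midpoints of neighboring peaks were closer than 1.06 kb in replicate 1 and 1.04 kb in replicate 2. On X the median distance was 63.8 kb, 0.772 times even placement (0.597 to 1.09), and 14 of 94 sites (14.9%) had a neighbor within 10 kb, against 8.04% under even placement. On the autosomes it was 96.0 kb, 1.08 times even placement (0.790 to 1.22), with 30 of 365 sites (8.22%) within 10 kb, against 7.26% under even placement.

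The closest 2 sites on X had midpoints 2.22 kb apart, namely the site from 15199248 with its high replicate 2 value and the next one from 15201806 to 15203497, with 3.56 in replicate 1 and 2.65 in replicate 2. The 2 neighbors on chromosome 4 were 2.29 kb apart. On 3R the sites from 14595257 to 14596691 (3.03 and 2.69) and from 14597364 to 14599363 (3.53 and 1.59) were 2.42 kb apart. In windows of 1 Mb the sites averaged 3.73, with a variance 1.36 times the mean, and 8 of 123 windows held none. The window with most sites, 10, was on X from 4 to 5 Mb, where the lists had 87 and 86 peaks and even placement would give 3. The fullest window on each of the others held 9 sites on 3R (2 to 3 Mb), 8 on 3L (0 to 1 Mb, 1 of 3 windows with that number), 7 on 2R (3 to 4 Mb), 7 on 2L (11 to 12 Mb, 1 of 2 such windows) and 5 on chromosome 4 (0 to 1 Mb).

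D. miranda, raised at 18 °C, gave a similar picture of width under the same limit; species and temperature cannot be told apart. Its lists of 3577 and 12523 peaks formed 268 pairs, 2.04 times even placement (1.80 to 2.30). The paired peaks had median widths of 1832 bp in replicate 1 and 1817 bp in replicate 2, against 1269 and 1387 bp for the remaining peaks, and 44.8% and 45.5% of them were over 1900 bp wide, against 24.0% and 21.4%. Spearman's rho of the log2 value between its replicates was 0.305 over the pairs, against 0.115 over the D. melanogaster sites, and the difference was not tested. Its median log2 values in pairs were lower than in the remaining peaks, at 3.55 against 3.96 in replicate 1 and 1.79 against 1.91 in replicate 2. In D. melanogaster the site medians were higher by only 0.08 and 0.07, an order that did not hold without the 2.0 to 2.3 kb band.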

How the data were processed

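CLAMP ChIP-seq peak lists of D. melanogaster and D. miranda female larvae were used as deposited. The authors aligned reads uniquely to dm3 (the submitters' processing notes name Bowtie; its version is not given in the sources used here), removed positions with anomalous tag counts, and called peaks with SPP at default settings against input. The input libraries enter only through these calls. The seventh column, which the deposited lists leave unnamed, was read from its values as log2 of the ratio of ChIP to input. Library depth is not part of them.

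Pairs were formed on the 6 assembled chromosomes where midpoints, the means of start and end, lay at most 200 bp apart. Even placement was computed in closed form for each chromosome as the product of both peak numbers and 401 bp, over the length to the end of the last peak. Nothing was resampled. Intervals were exact Poisson, exact binomial or order-statistic 95% intervals, or for rho from Fisher's transformation, and cover counting error only. Python 3.11.15 with numpy 2.4.6, pandas 2.3.3, scipy 1.17.1 and matplotlib 3.10.9 was used, and the pairing was tested on simulated data.

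The sites, size classes and named sites were chosen with earlier results of these data known. Named sites were the 10 best and 5 worst by mean rank, the 5 widest, the 5 with the largest difference of value, the best on each chromosome, the 3 closest pairs, the fullest window on each chromosome and those next to the limit. The remaining chromosome 4 sites, the strongest replicate 1 peak, and the classes over 1900 bp and of over 2000 and up to 2300 bp were chosen after their values were seen. A search for GA repeats was not run, because no dm3 genome was used here. Alternatives for the distance limit, overlap, narrow peaks, tied values, chromosome 4 and chromosome length are given in the closing section.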

Additional observations from a re-analysis of the deposited data

Results flagged for a closer look

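Midpoints also met the limit on sequences left out of the sites. On the heterochromatic and unplaced sequences of dm3, 11 pairs of D. melanogaster peaks had midpoints at most 200 bp apart, which was 11.8% of the 93 replicate 1 peaks and 2.99% of the 368 replicate 2 peaks there. On the assembled chromosomes the shares were 5.11% and 5.45%. Even placement was not computed for the pairs on the excluded sequences. These 11 pairs lay on Uextra (7 pairs), U (2), 2RHet (1) and 3LHet (1). The pair on Uextra from 21860580 to 21862620 had log2 values of 4.06 in replicate 1 and 9.78 in replicate 2, and that from 12248211 to 12250251 had 4.72 and 9.75. No site on the assembled chromosomes exceeded 5.58 in replicate 2. These sequences were not part of any other comparison and the input level at the pairs was not analysed here.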

How the results depend on the processing

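Of 66 values from 8 alternatives, 54 stayed within the interval of the reported value (for counts of sites, within 1.5 times), 11 moved out of it and 1 turned. With midpoints within 100 bp there were 293 sites, 2.32 times even placement, and the site peaks were 554 bp wider than the remaining peaks in replicate 1 and 451 bp wider in replicate 2. Within 400 bp there were 826 sites, 1.64 times even placement, and the width difference in replicate 2 was 306.5 bp. Without peaks of exactly 1000 bp the sites were 2.12 times even placement. Without peaks of over 2000 and up to 2300 bp, an alternative chosen after seeing the data, the sites were 1.44 times even placement, the width differences fell to 57 bp in replicate 1 and 78 bp in replicate 2, and the difference of log2 value in replicate 2 was -0.048, opposite in sign to 0.07. Under the same alternative the difference of log2 value in replicate 1 was 0, against 0.08, and Spearman's rho of value between the replicates was 0.037 (-0.072 to 0.145), against 0.115. The falls in the ratio and in the width differences were partly built in, because this band held a larger share of site peaks than of remaining peaks. The cause was not tested.

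A site needs a peak in each replicate, so leaving out a replicate was not an option. No paired analysis was possible because no test was made. The search for GA repeats was not run. The lists hold only called peaks, so sites below the calling threshold in 1 library are missed. Sequencing depth is not part of the lists, and its part in the results was not tested.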
